A study of Helianthus annuus with 9 samples.

Results

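The siRNAs described here are the 21-nt predicted siRNAs of developing sunflower seeds whose guide strand starts with C or with G. Members were the siRNA entries of the deposited count table whose guide, joined by entry name from the deposited list of predicted duplexes, is 21 nt long and has one of these bases at its 5′ end. The rule used sequence alone and no read count. It found 1226 entries, 1043 starting with C and 183 starting with G, of 2771 siRNAs of 21 nt, 7735 siRNAs and 8473 small RNA entries in all. The other 21-nt siRNAs start with A (1045 entries) or U (500 entries). The series holds 9 small RNA libraries of developing seeds from L-1-OL-1, a high-oleic sunflower (Helianthus annuus) line grown in the field, with 3 libraries on day 7, 3 on day 22 and 3 on day 37. No treatment or second genotype is labelled, and the sources used here do not state what the days were counted from. They do not say that the 3 libraries of each day come from different plants either, so p-values measure only the spread between libraries, which may be technical. A library held 31011803 to 34397084 reads, of which 2208822 to 4050364 stood in small RNA entries.

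In plants, Dicer-like enzymes cut long double-stranded RNA into short duplexes with an overhang of a few bases at each 3′ end. One strand, the guide, is loaded into an Argonaute protein, which then silences RNA that pairs with it, and the other strand, the passenger, is removed. The 21-nt length is that of trans-acting and other phased siRNAs. In Arabidopsis the 5′ base of a small RNA helps to decide which Argonaute takes it up: AGO5 favours C, AGO1 favours U and AGO2 favours A. AGO5 is best known from reproductive tissue. None of these files measures loading into an Argonaute, so the 5′ base below is a property of the sequence only. The samples are whole seeds, in which fewer cells that make an siRNA and less of it per cell cannot be told apart.

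The guides of the 5 most abundant members of each base are shown first because they carry the most reads of their class. They are written 5′ to 3′ in DNA letters as deposited (T stands for U), with the 5′ base that put them in their class and the base at position 19 in capitals. Position 19 lies opposite the 5′ base of the passenger, since the strands pair over 19 bases and leave 2 bases unpaired at each 3′ end. Those starting with C are
novel_sir8790: CaacacttcacattgcagCaa
novel_sir8843: CatagtccctctaagaagCtg
novel_sir6053: CgtgcttgggcgagagtaGta
novel_sir14642: CtttgcgctcttgatatcAcg
novel_sir10599: CaaccacgatcggcacaaCgg
and those starting with G are
novel_sir15645: GggaagacaactttggccAaa
novel_sir10012: GggcaaagcccgcgtcgaCct
novel_sir13941: GgcgttgttactttgaagAaa
novel_sir14234: GattcttggatagccttcAag
novel_sir11996: GaactaaatcatgtcgatAtt

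The passenger of novel_sir8790, deposited 3′ to 5′ and turned round here, shows the geometry: GCTGCAATGTGAAGTGTTGTA pairs from its first base with position 19 of the guide. Its 5′ base is G, which follows C in the alphabet. This order held throughout. In all 2771 listed duplexes of 21 nt, the strand deposited as the guide came before its passenger alphabetically, both read 5′ to 3′. Accordingly, of the 1043 guides starting with C, 0 had a passenger starting with A, 243 one with C, 265 one with G and 535 one with U. Of the 183 guides starting with G, 0 had a passenger starting with A, 0 one with C, 91 one with G and 92 one with U. All 500 guides starting with U had a passenger that also starts with U. The list of predicted duplexes is longer than the count table. It holds 19974 duplexes, of which 12162 have a guide column that reads 3′ to 5′, as the position of the overhangs and matches to predicted precursors show. None of those 12162 is listed in the count table. Among the 3859 of them with 21 nt, the guides read 5′ to 3′ start with U in 1913 cases, C in 988, G in 740 and A in 218. The 5′ bases of the counted siRNAs are thus those of the strand that comes first in the alphabet, and the files do not say whether the reads counted are of the guide, the passenger or both.

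Beyond the 5′ base, the guides varied widely. The members starting with C had a mean GC content of 47.6% (23.8% to 85.7%) and those starting with G one of 49.1% (23.8% to 76.2%), against 41.0% for the U class and 44.0% for the A class. The defining base itself is a G or C, so the rule by itself raises these means above those of the U and A classes. In the U class position 19 is also always A, since every passenger there starts with U. Whether any of the gap remains without these positions was not tested, so no difference in the rest of the guide is reported. At position 2, A was the most frequent base after C (40.2%) and after G (47.0%), as it was in the U class (38.0%) and the A class (34.1%). Where both strands start with the same base, the alphabetical order of the strands bears on position 2 too. Its part in these values was not tested. Entries were not all separate sequences. The same guide stood under more than 1 entry for 26 C members and 24 G members, with other passengers. Overlap was counted where 18 or more bases in a row matched, on the same strand or on the opposite one. By this count 208 C members overlapped another member of either base and 502 overlapped some other listed siRNA. For G members these numbers were 54 and 113. Whether overlapping entries share reads or a source was not tested, so they are not treated as independent of each other.

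As a class, siRNAs starting with C took more of the small RNA reads on days 22 and 37 than on day 7, while those starting with G did not. The C class held 293750 to 308639 reads on day 7, 594038 to 696193 on day 22 and 602682 to 732172 on day 37. This was 13.3% ± 0.0826 of reads in small RNA entries on day 7, 18.2% ± 0.607 on day 22 and 17.3% ± 1.08 on day 37 (SD, n = 3 each). All libraries of day 22 and of day 37 lay above all of day 7, and those of days 22 and 37 overlapped. The G class held 61462 to 65275 reads on day 7, 90519 to 101285 on day 22 and 84601 to 102397 on day 37. Its share was 2.81% ± 0.0341 on day 7, 2.69% ± 0.0866 on day 22 and 2.43% ± 0.152 on day 37 (SD, n = 3 each). Every library of days 22 and 37 lay below every library of day 7. The rise was not particular to the C class. On days 7, 22 and 37 the U class held 4.46%, 5.79% and 5.26% of small RNA reads. Its libraries of days 22 and 37 also lay above all of day 7. The A class held 10.5%, 12.9% and 10.5%. Over all reads of the library the order was different for G, with 0.197% on day 7, 0.282% on day 22 and 0.291% on day 37, and small RNA entries took at most 7.12% of all reads in a library of day 7 and at least 10.4% in one of the later days. The C class held 0.934%, 1.91% and 2.07% of all reads on these days. Entries for ribosomal and other structural RNA held 3.72% ± 0.434 of small RNA reads on day 7, 5.51% ± 1.37 on day 22 and 17.2% ± 4.45 on day 37 (SD, n = 3 each). Their part in the shares of the siRNAs was not tested.

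Within the 21-nt siRNAs the C class held a larger part of the reads on each later day. It took 42.4%, 43.4% and 42.7% of the reads of 21-nt siRNAs in the day 7 libraries. It held 45.9%, 46.0% and 46.2% on day 22 and 49.1%, 48.4% and 48.8% on day 37. No library overlapped with one of another day. The G class held 8.87%, 9.17% and 9.07% on day 7, 6.62%, 7.01% and 6.73% on day 22 and 6.90%, 6.77% and 6.89% on day 37. Day 7 stood apart from both later days, which overlapped. Beside them the A class held 33.8% ± 0.726, 32.6% ± 0.512 and 29.6% ± 0.0341, and the U class 14.3% ± 0.183, 14.6% ± 0.324 and 14.8% ± 0.398, on days 7, 22 and 37 (SD, n = 3 each). A denominator of 21-nt siRNAs leaves out structural RNA, known miRNAs and siRNAs of other lengths.

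The reads were spread unevenly over the members. The median member had 20.7 CPM (reads scaled to the library's reads in small RNA entries and its TMM factor; mean of 9 libraries) in the C class and 27.9 CPM in the G class, and the highest 14500 and 4560 CPM. The 5 most abundant members held 17.2% of the summed CPM of the C class and 41.2% of that of the G class. The day with the highest mean was day 22 for 497 C members (47.7%), day 37 for 348 (33.4%) and day 7 for 198. For G members these were 63 on day 22, 63 on day 37 and 57 on day 7. Among all 8473 small RNA entries, 46.8% had their highest mean on day 7, 23.6% on day 22 and 29.6% on day 37. A frequent day 22 peak was not particular to the C class. It was seen for 43.8% of U members and 40.5% of A members. Reads were listed in all 9 libraries for 553 of 1043 C members, 95 of 183 G members and 3611 of all 8473 entries. The lowest count above 0 among siRNAs is 10 reads, so a 0 was taken to allow up to 9 reads, which is an assumption. Of the C members, 238 were at 0 in all 3 libraries of day 7, 44 on day 22 and 228 on day 37. Of the G members, 25, 18 and 48 were. Of all 8473 entries, 1403 were at 0 on day 7, 1614 on day 22 and 2731 on day 37. On these days 114, 33 and 138 of 500 U members and 247, 105 and 276 of 1045 A members were.

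Changes between days are fitted log2 ratios, later day over earlier day. A filter on low counts left 950 of the 1043 C members and 169 of the 183 G members in the test, which ran over 7294 small RNA entries in one edgeR quasi-likelihood fit with Benjamini-Hochberg adjusted p-values and a threshold of 0.05. On day 22 against day 7, 591 of the 950 tested C members rose (62.2%) and 121 fell (12.7%), where 69.8% of all tested entries changed, 35.3% upwards and 34.5% downwards. Of the 169 tested G members, 79 rose (46.7%) and 30 fell (17.8%). The median log2 change was 1.05 for C and 0.58 for G members, against -0.01 for all tested entries, and the middle part of the C members, from the lower to the upper quartile, ran from 0.23 to 2.36. For comparison, 53.1% of tested A members rose and 18.3% fell, and 52.2% and 16.0% of tested U members. With zeros at 9 reads the medians were 0.94 for C and 0.58 for G. They depended more on the scaling. Under RLE factors they were 0.71 for C and 0.23 for G, against -0.36 for all tested entries. Scaled to the sum of small RNA reads without further factors they were 0.61 and 0.13, against -0.46. With all reads as library size they were 1.19 and 0.71, against 0.10.

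On day 37 against day 22, falls were more frequent than rises in both classes. Of the tested C members, 206 rose (21.7%) and 355 fell (37.4%), where 50.6% of all tested entries changed, 18.8% upwards and 31.8% downwards. Of the tested G members, 38 rose (22.5%) and 66 fell (39.1%). The median log2 change was -0.37 for C and -0.28 for G members, against -0.15 for all tested entries. With zeros at 9 reads it was -0.14 for C and 0.01 for G, so the sign of the G median depended on how a 0 was read. All these shares lie near those of the whole table.

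On day 37 against day 7, 443 tested C members rose (46.6%) and 236 fell (24.8%), where 78.7% of all tested entries changed, 33.1% upwards and 45.6% downwards. Of the tested G members, 71 rose (42.0%) and 55 fell (32.5%). The median log2 change was 0.48 for C and 0.22 for G members, against -0.57 for all tested entries. Tested A members had a median of 0.49, with 43.5% higher and 28.8% lower. Tested U members had one of 0.4, with 42.3% higher and 30% lower. The gap to all tested entries was thus not particular to C and G members. Scaling to the sum of small RNA reads without further factors turned the C and G medians to -0.20 and -0.53. It moved the median of all tested entries to -1.48. Under that scaling 294 C members rose and 395 fell, and the share of C calls that were rises was 42.7%, against 65.2% as reported. For G it was 38.5%, against 56.3%, and for all tested entries 28.3%, against 42%. The 3 contrasts share the libraries of each day. Differences between the C and G classes were not tested.

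Followed over both steps, 181 tested C members rose on day 22 and rose again on day 37 (19.1%), 218 rose and then did not pass the test (22.9%), and 192 rose and then fell (20.2%). Another 79 fell at both steps (8.32%), 84 passed only the second test, as lower (8.84%), and 137 passed in neither (14.4%). Of all 7294 tested entries, 14% rose at both steps, 12.3% rose and then did not pass, 8.93% rose and then fell, 1058 entries fell at both, 8.39% passed only the second test as lower and 18.3% passed in neither. A fall followed by a rise was called for 8 C members (0.842%), a fall alone in the first step for 34 (3.58%) and a rise alone in the second for 17 (1.79%). Of all tested entries 1.28%, 18.7% and 3.44% had these patterns. The A and U classes lay nearer to the C class. There 14.1% of tested A and 13.5% of tested U members rose at both steps. A rise and then no pass was seen for 21.2% and 21.3%, and a rise and then a fall for 17.8% and 17.4%. A fall alone in the first step was called for 7.84% and 5.49%. Among the tested G members 26 rose at both steps (15.4%), 26 rose and then did not pass, 27 rose and then fell (16.0%), 17 fell at both (10.1%) and 29 passed in neither (17.2%). The G shares for a rise at both steps and for neither test lie near those of all tested entries. Split by the passenger, 175 of 244 tested C members whose passenger starts with G rose on day 22 against day 7 (71.7%), as did 138 of 223 with a C passenger (61.9%) and 278 of 483 with a U passenger (57.6%). On day 37 against day 7 these shares were 61.5%, 45.3% and 39.8%. G members with a U passenger rose in 48 of 89 cases on day 22 against day 7 (53.9%), and those with a G passenger in 31 of 80 (38.8%). Falls were called for 8.99% of these G members with a U passenger and 27.5% of those with a G passenger. Of all tested entries 35.3% rose and 34.5% fell between these days. The share of rises among G members with a G passenger thus lay near that of all tested entries. This split was made after values had been seen, and no difference within it was tested.

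The most abundant C member, novel_sir8790, stood at 5140, 5240 and 5670 CPM on day 7, at 17400, 19400 and 18000 on day 22 and at 18900, 21500 and 19600 on day 37. The later libraries were all above those of day 7, and days 22 and 37 overlapped. The log2 change was 1.77 ± 0.08 (SE) on day 22 against day 7 (edgeR adjusted p = 1.39e-06) and 0.13 ± 0.08 on day 37 against day 22 (adjusted p = 0.23), a value whose sign and call depended on the scaling. It was 0.28 under RLE factors (adjusted p = 0.0154), 0.29 under the upper quartile (0.0149) and 0.28 in DESeq2 (0.000144), but -0.34 under small RNA totals (0.0158) and -0.15 over all reads (0.221). novel_sir8843 had 1390, 1360 and 1510 CPM on day 7, 8260, 8710 and 6960 on day 22 and 2840, 2910 and 2730 on day 37. It peaked on day 22 with no overlap between days, 2.49 ± 0.10 above day 7 on the log2 scale (adjusted p = 8.63e-07), and its log2 change on day 37 against day 22 was -1.50 ± 0.10 (adjusted p = 6.42e-06). novel_sir10599 stood at 727, 754 and 761 CPM on day 7, 1990, 2080 and 1800 on day 22 and 6930, 7710 and 7880 on day 37. It was higher on each later day in every library, with a log2 change of 3.33 ± 0.09 on day 37 against day 7 (adjusted p = 3.14e-08).

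novel_sir6053 had 1260, 1120 and 938 CPM on day 7, 6130, 6470 and 4150 on day 22 and 4680, 4680 and 5050 on day 37. It rose to day 22 by 2.33 ± 0.19 on the log2 scale (edgeR adjusted p = 1.5e-05), and days 22 and 37 overlapped. novel_sir14642 passed no test as reported, with 3020, 3610 and 2940 CPM on day 7, 4080, 3740 and 5230 on day 22 and 4700, 2890 and 3660 on day 37. Other settings called it. On day 22 against day 7 the log2 change of 0.45 (edgeR adjusted p = 0.0724) passed as 0.55 under the upper quartile (0.0398), 0.59 over all reads (0.0319), 0.53 with zeros at 9 reads (0.0317) and 0.45 without day 37 replicate 1 (0.038) or replicate 2 (0.0432). Its change of -0.21 on day 37 against day 22 passed as -0.70 under small RNA totals (0.0157). On day 37 against day 7 it passed in opposite directions, as 0.50 under the upper quartile (0.049) and -0.69 under small RNA totals (0.011). The member with the guide most like it, novel_sir14643 (chosen after its values were seen), differs at 3 positions and has the same last 14 bases.
novel_sir14642: CtttgcgctcttgatatcAcg
novel_sir14643: CttggaactcttgatatcAcg
novel_sir14643 averaged 3380 ± 299 CPM on day 7, 3760 ± 701 on day 22 and 1080 ± 151 on day 37 (SD, n = 3 each). Unlike novel_sir14642 it fell on day 37 against day 22, by 1.80 on the log2 scale (SE 0.16, edgeR adjusted p = 3.39e-05); the difference between the pair was not tested.

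Among the G members, novel_sir15645 stood at 4630, 5370 and 5240 CPM on day 7, 5690, 7720 and 6490 on day 22 and 1590, 2170 and 2170 on day 37. Its day 37 libraries lay below all others, and its log2 change on day 37 against day 22 was -1.75 ± 0.16 (edgeR adjusted p = 3.92e-05). The same guide is listed under novel_sir15642, novel_sir15643 and novel_sir15644, which hold 682, 1013 and 514 reads over all libraries, against 134041 for novel_sir15645. Entries with this guide, which differ in the passenger, thus differed up to 261-fold in reads. Among C members the largest such ratio was 1250-fold, between novel_sir16306 and novel_sir16307, a pair chosen after its values were seen. novel_sir14234 had 1500, 1490 and 1480 CPM on day 7, 2660, 2560 and 2930 on day 22 and 478, 543 and 535 on day 37. No libraries of different days overlapped, and its log2 change on day 37 against day 22 was -2.39 ± 0.09 (adjusted p = 4.12e-07).

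Other abundant G members went the opposite way. novel_sir10012 stood at 713, 705 and 672 CPM on day 7, 1080, 1150 and 948 on day 22 and 3700, 3990 and 4000 on day 37. novel_sir13941 stood at 371, 326 and 343 CPM on day 7, 738, 755 and 668 on day 22 and 3970, 4350 and 4230 on day 37. Both were highest on day 37 in every library, with log2 changes against day 22 of 1.88 ± 0.09 (edgeR adjusted p = 1.45e-06) and 2.54 ± 0.09 (adjusted p = 3.56e-07). novel_sir11996, with 1240, 1100 and 1150 CPM on day 7, 1370, 1420 and 1290 on day 22 and 1230, 1620 and 1340 on day 37, passed no test as reported and was also among the G members with the least range between day means. The libraries of its days 22 and 37 overlapped, and the sign of its small changes turned with the scaling. On day 37 against day 7 its log2 change of 0.27 (edgeR adjusted p = 0.0603) passed as 0.53 under the upper quartile (0.00192), 0.45 with zeros at 9 reads (0.00939) and 0.35 without day 37 replicate 1 (0.0205), and in the opposite direction as -0.65 under small RNA totals (0.0012).

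The members with the largest called changes show how far single siRNAs departed from their class. Those picked by the rule from members read in all 6 libraries of a contrast, or read on one day and listed at 0 on another, included
novel_sir11380: CagccgattacgtgtagtAcc
novel_sir18328: CcaaaaggaaaagtagcaAgg
novel_sir13180: CccctgccctagtcttcgAtc
novel_sir15705: CtcatgtgtttcacggccAat
novel_sir12546: CtggcttgccgcattatgAta
novel_sir9603: CtatttaaattccgagacCac
novel_sir13808: CgaaactaaagacgtcagAtt
in the C class and
novel_sir19669: GaacagcccagcttgaaaAtc
novel_sir13700: GgattagaccgtcgtgagAca
novel_sir19374: GtggacaccagagggcaaAtc
novel_sir13568: GatttcgattggcacacgAgt
novel_sir9642: GcctcctactctggccacCgg
novel_sir9897: GatggccaaaggagaataCct
novel_sir15571: GcctctaagtcagaatccAtg
in the G class.

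novel_sir11380 had the largest rise on day 37 against day 7 among C members read in all 6 libraries. It stood at 9.49, 8.78 and 9.73 CPM on day 7, 173, 169 and 199 on day 22 and 402, 473 and 435 on day 37, with no overlap between days. The log2 change was 5.54 ± 0.12 (edgeR adjusted p = 1.34e-08). novel_sir18328 was instead high on a single day, with 4.07, 3.45 and 4.71 CPM on day 7, 107, 129 and 141 on day 22 and 6.16, 7.32 and 9.16 on day 37. It rose by 4.93 ± 0.19 on day 22 against day 7 (adjusted p = 7.28e-07), and its log2 change on day 37 against day 22 was -4.05 ± 0.18 (adjusted p = 8.05e-07). novel_sir14614 had the same shape, with means of 10.4 CPM on day 7, 113 on day 22 and 5.53 on day 37.

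novel_sir13180 had overlapping libraries on days 7 and 22 and was low on day 37. It stood at 267, 259 and 200 CPM on day 7, 275, 259 and 241 on day 22 and 15.4, 17.6 and 10.9 on day 37, a log2 change of -4.14 ± 0.19 on day 37 against day 22 (edgeR adjusted p = 9.33e-07). novel_sir15705 was lower at each step, with 989, 983 and 1040 CPM on day 7, 196, 180 and 198 on day 22 and 7.31, 14.0 and 14.1 on day 37. Its log2 change on day 37 against day 7 was -6.40 ± 0.23 (adjusted p = 8.78e-08). novel_sir16987 followed the same course, with a log2 change of -6.40 ± 0.31 for that pair of days (adjusted p = 3.53e-07).

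Several C members were listed on some days only. novel_sir12546 was at 0 in the 3 libraries of day 7 and had 134, 157 and 164 CPM on day 22 and 385, 443 and 363 on day 37. Taking 9 reads for each 0, it was at least 52.4-fold higher on day 22 and at least 137-fold higher on day 37 than on day 7. novel_sir9603 was likewise at 0 on day 7, with 108, 104 and 113 CPM on day 22 and 336, 449 and 409 on day 37, at least 37.3-fold and at least 137-fold higher than on day 7. novel_sir13808 was at 0 in the 3 libraries of day 37, with 228, 221 and 225 CPM on day 7 and 60.1, 61.0 and 62.4 on day 22. It was at least 70.0-fold lower on day 37 than on day 7 and at least 19.1-fold lower than on day 22. Listed in all 3 libraries of a single day and at 0 in the others were 14 C members on day 7 (1.34%), 48 on day 22 (4.60%) and 2 on day 37 (0.192%). Of all 8473 small RNA entries these were 10.7%, 1.66% and 0.685%. The share on day 22 was not particular to the C class. In the A class the shares were 4.78%, 4.4% and 0.766%, and in the U class 2.4%, 3.6% and 0.6%.

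Of the G members read in all 6 libraries, novel_sir19669 rose most on day 22 against day 7. It had 14.6, 20.7 and 13.5 CPM on day 7, 370, 344 and 271 on day 22 and 453, 332 and 338 on day 37, a log2 change of 4.33 ± 0.23 (edgeR adjusted p = 2e-06) with overlap between the later days. novel_sir13700 climbed at both steps, with 15.6, 12.9 and 22.3 CPM on day 7, 76.1, 87.7 and 71.2 on day 22 and 406, 430 and 402 on day 37. Its log2 change on day 37 against day 7 was 4.61 ± 0.19 (adjusted p = 1.81e-07).

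novel_sir19374 kept 372, 434 and 395 CPM on day 7 and 395, 407 and 321 on day 22, and had 5.00, 11.6 and 13.4 on day 37. The log2 change on day 37 against day 22 was -5.21 ± 0.29 (edgeR adjusted p = 2.59e-06), the largest fall between these days among G members read in all 6 libraries. novel_sir13568 peaked on day 22, with 55.6, 55.5 and 54.3 CPM on day 7, 299, 319 and 317 on day 22 and 15.0 to 24.6 on day 37. It rose by 2.50 ± 0.15 on day 22 against day 7 (adjusted p = 4.39e-06), and its log2 change on day 37 against day 22 was -3.87 ± 0.17 (adjusted p = 7.1e-07). novel_sir9642 was lower at each step, with 1110, 1130 and 926 CPM on day 7, 140, 130 and 136 on day 22 and 10.0, 8.98 and 12.3 on day 37. Its log2 change on day 37 against day 7 was -6.65 ± 0.15 (adjusted p = 1.52e-08).

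novel_sir9897 was seen on day 7 only. It had 214, 225 and 183 CPM there and was at 0 in the 6 later libraries, at least 80.8-fold lower on day 22 and at least 64.7-fold lower on day 37 than on day 7. novel_sir15571 was the reverse case, at 0 in the 6 earlier libraries and with 77.8, 90.8 and 82.8 CPM on day 37, at least 32.6-fold higher than on day 22 and at least 28.9-fold higher than on day 7. Listed in all 3 libraries of a single day were 8 G members on day 7 (4.37%), 5 on day 22 (2.73%) and 2 on day 37 (1.09%), against 10.7%, 1.66% and 0.685% of all small RNA entries. At the other end, novel_sir6606 of the C class was nearly level, with 46.1, 39.5 and 49.9 CPM on day 7, 42.3, 44.5 and 50.7 on day 22 and 44.3, 41.2 and 45.1 on day 37. Its days overlapped fully, and the log2 change on day 37 against day 7 was -0.05 ± 0.12 (edgeR adjusted p = 0.705).

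Some members match the deposited precursors of predicted miRNAs exactly. Of the 1226 members, 51 were found in 30 predicted precursors, 45 starting with C and 6 starting with G. The sources used here do not name the build of these coordinates and no gene annotation was joined, so whether they lie in a gene is not reported. A match says that the guide occurs in that precursor and not that its reads came from there. Of the 51, 12 matched both strands of one precursor, as they would where the precursor holds an inverted repeat. Which precursors are described here was chosen after values were seen. Members that match one precursor did not always share a course. In novel_mir48, novel_sir17982 had a log2 change of -1.09 ± 0.17 on day 37 against day 7. There novel_sir17126 had one of 2.32 ± 0.26 and novel_sir19767 one of 1.95 ± 0.13, and both also match other precursors.

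One group matched the predicted precursor novel_mir59 (NC_035444.1, start 161563937, end 161564124, plus strand), all on the strand opposite to it. All of them also match novel_mir60, and all but novel_sir7527 also match novel_mir58, both elsewhere on the same sequence, so no single locus can be given.
novel_sir10099: CacgatcctaacacttcaCcg
novel_sir5290: CattcaatcggtaggagcGac
novel_sir9568: CctaacacttcaccggacCat
novel_sir7527: GaaaccttgttacgacttCtc
All were highest on day 37 in every library. novel_sir10099 had 595, 549 and 541 CPM on day 7, 1840, 1870 and 1800 on day 22 and 5860, 6810 and 6870 on day 37, and novel_sir9568 averaged 422 ± 15.0, 893 ± 25.8 and 5910 ± 737 CPM on these days (SD, n = 3 each). The guides of this pair overlap, at precursor positions 26 to 46 and 20 to 40. The log2 changes on day 37 against day 22 were 1.82 ± 0.09 for novel_sir10099 (edgeR adjusted p = 1.33e-06), 1.98 ± 0.18 for novel_sir5290 (3.35e-05), 2.73 ± 0.11 for novel_sir9568 (5.18e-07) and 2.36 ± 0.12 for novel_sir7527 (1.34e-06). Ribosomal RNA entries held 3.23% ± 0.397, 4.84% ± 1.20 and 15.3% ± 3.68 of small RNA reads on days 7, 22 and 37 (SD, n = 3 each). Whether these siRNAs derive from ribosomal RNA was not tested.

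Members in novel_mir84 (NC_035447.1, start 20192413, end 20192580, plus strand) were highest on day 7. Of these, novel_sir12777 and novel_sir18880 also match novel_mir83, elsewhere on the same sequence.
novel_sir12777: CaagacccgtatggctggAtt
novel_sir18880: CttgacttggctccaacaAcc
novel_sir15714: CagggaagctcgaaggccAtc
novel_sir15714 had 314, 297 and 273 CPM on day 7, 42.3, 47.6 and 40.6 on day 22 and 4.23, 4.32 and 5.28 on day 37, with no overlap between days. Its log2 change on day 37 against day 7 was -5.98 ± 0.13 (edgeR adjusted p = 1.36e-08). novel_sir12777 and novel_sir18880 averaged 42.8 ± 5.19 and 60.4 ± 15.2 CPM on day 7 and were at 0 in all libraries of day 37. On day 22 novel_sir12777 had reads in a single library and novel_sir18880 in all but one.

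Members in novel_mir87 (NC_035447.1, start 96977429, end 96977927, plus strand) matched both of its strands and peaked on day 22.
novel_sir12707: CgccggacccatctttggAga
novel_sir12994: CagtactaaaatcgccggAcc
novel_sir17370: CagttaacggcttcttgaAca
novel_sir12707 had 27.1, 29.5 and 32.0 CPM on day 7, 131, 152 and 144 on day 22 and 15.8, 16.3 and 12.3 on day 37. It rose by 2.27 ± 0.13 on day 22 against day 7 (edgeR adjusted p = 2.43e-06), and its log2 change on day 37 against day 22 was -3.26 ± 0.13 (adjusted p = 5.89e-07). novel_sir17370 averaged 33.0 ± 5.51, 77.5 ± 7.30 and 6.74 ± 0.877 CPM on days 7, 22 and 37, and novel_sir12994 10.7 ± 3.14, 28.0 ± 2.78 and 0 (SD, n = 3 each). The guides of novel_sir12707 and novel_sir12994 overlap by 9 bases in this precursor.

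A day 22 peak was also seen in novel_mir53 (NC_035444.1, start 22937337, end 22937704, plus strand), where C and G members lie on the strand opposite to it.
novel_sir13259: CttttgagagtaccatcgAag
novel_sir15098: CcttgatcatcgcgtcgcAtc
novel_sir18150: GatgcgccgcgatgatcaAgg
All were at 0 in the 3 libraries of day 7. On day 22 they had 63.8, 56.6 and 60.8 CPM for novel_sir13259, 84.1, 93.6 and 92.9 for novel_sir15098 and 26.6, 18.7 and 19.7 for novel_sir18150. On day 37 novel_sir15098 alone was listed, with 4.62, 10.6 and 9.51 CPM, and its log2 change on day 37 against day 22 was -3.43 ± 0.27 (edgeR adjusted p = 8.55e-05).

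Known miRNAs that act on the silencing machinery or start phased siRNAs were counted in the same fit. They were miR162, which targets DCL1, miR168, which targets AGO1, miR403, which targets AGO2, miR390, which starts trans-acting siRNAs with AGO7, and miR858, which targets MYB transcripts. Of 27 entries in these families, 22 were tested. On day 22 against day 7, 15 rose and 3 fell, where 35.3% of all tested entries rose and 34.5% fell. On day 37 against day 22, 5 rose and 10 fell, where 18.8% and 31.8% of all did. Over the whole span, day 37 against day 7, 11 rose and 3 fell, where 33.1% and 45.6% of all did. Families differed. Of 10 tested miR168 entries, 9 rose and 0 fell on day 22 against day 7, and 4 rose and 5 fell on day 37 against day 22. Of 4 tested miR162 entries, 0 rose and 2 fell on day 22 against day 7. Entries of a family share most of their sequence and are not independent of each other.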

How the data were processed

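Small RNA of 18 to 30 nt was sequenced from 9 seed libraries, 3 per day, after ligation of adapters with unique molecular identifiers, per the labels' protocols. Per the submitters' processing notes Bowtie2 was used. The genome build, the counting tool, filters and any collapsing of reads by identifier were not given in the sources. As deposited, the table holds a whole-number count of reads per entry, per the file headers. Its deposited columns headed TPM, treated as a score of unstated meaning, were not used. Guide and passenger sequences and precursor coordinates (other values, per the file headers) were taken unchanged from the deposited lists.

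The 3 totals for exons, introns and intergenic sequence were left out, and 3 listed siRNAs without a sequence line could not be members. Counts were fitted with edgeR 4.0.16 under R 4.3.3 (TMM factors, filterByExpr by day, quasi-likelihood F test, a mean per day, all 9 libraries), with p-values adjusted by Benjamini-Hochberg over 7294 entries and a threshold of 0.05. A log2 change's SE is its size divided by the root of F. Bounds against a day at 0 take 9 reads per library. A duplex was read in the direction in which 19 bases pair with 2-base 3′ overhangs. In the counts of overlapping members, guides overlap where at least 18 bases in a row match on the same strand or, as the reverse complement, on the opposite one. Counts without molecular collapse are not independent molecules.

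The members and lists were chosen with earlier results of these data known. For C and G apart, named members are the 5 most abundant; per contrast the 2 largest called rises and 2 largest falls among members read in all 6 libraries; per pair of days the highest member at 0 on one day only, in each direction; and the 2 with the smallest range of day means. Of the pathway list, miR482, miR828 and miR2118 have no entry in the table. Alternatives were RLE, upper-quartile, plain-total and all-read scaling, other filters, DESeq2 1.42.0, zeros at 9 reads, joined guides, a replicate term and each library left out. The fit was tested on simulated data.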

Additional observations from a re-analysis of the deposited data

How the results depend on the processing

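The counts of called members kept within 1.5 times under RLE and upper-quartile factors, all reads as library size, other filters, DESeq2, zeros at 9 reads, joined guides and a replicate term. Under plain small RNA totals they moved at day 37 against day 7, to 294 higher and 395 lower for C and 47 higher for G. The median log2 change of all tested entries, as reported -0.01, -0.15 and -0.57 at day 22 against 7, 37 against 22 and 37 against 7, was then -0.46, -0.62 and -1.48. It was -0.36, 0.00 and -0.76 under RLE, 0.05, 0.00 and -0.31 under the upper quartile and 0.10, -0.43 and -0.69 over all reads. Under plain totals the median of C at day 37 against day 7 turned to -0.20 and that of G to -0.53. The G median at day 37 against day 22 turned to 0.01 with zeros at 9 reads. Under plain totals the share of C calls that were rises at day 37 against day 22 was 21.7%, against 36.7% as reported. For all tested entries it was 23.7%, against 37.1%. The share of G calls that were rises at day 22 against day 7 was 61.2% under plain totals, against 72.5%. For all tested entries it was 39.7%, against 50.6%. Of 1246 values of named members under the alternatives, 1207 kept direction and side of the threshold, 25 passed only there, 3 passed no longer and 11 turned. Those that passed no longer were novel_sir8843 at day 37 against day 7 (0.07) and novel_sir10012 at day 22 against day 7 (0.15), both under plain totals, and novel_sir14901 at day 37 against day 22 with a replicate block (7.45).

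Those that turned were novel_sir8790 at day 37 against day 22 (-0.34 under plain totals, -0.15 over all reads), novel_sir14642 at day 37 against day 7 (-0.69, plain totals), novel_sir15645 at day 22 against day 7 (-0.07, plain totals) and novel_sir11996. The last gave -0.12 under RLE and under DESeq2 and -0.22 under plain totals at day 22 against day 7, -0.43 under plain totals, -0.24 over all reads and -0.08 without day 37 replicate 2 at day 37 against day 22, and -0.65 under plain totals at day 37 against day 7. The cause was not tested.

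The log2 ratio of class shares depended on the denominator. For C it was 0.45, -0.08 and 0.38 at day 22 against 7, 37 against 22 and 37 against 7, and 0.11, 0.08 and 0.19 over 21-nt siRNA reads, 1.03, 0.11 and 1.15 over all reads. Without the 5 members with the most reads the first 2 were 0.30 and 0.01. For G it was -0.06, -0.14 and -0.21, and -0.41, 0.01 and -0.40 over 21-nt siRNA reads, 0.52, 0.05 and 0.56 over all reads, and -0.16, 0.12 and -0.04 without its 5 members with the most reads.

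Leaving out each library in turn gave 535 to 604 higher and 108 to 126 lower C members at day 22 against day 7, 189 to 213 and 321 to 350 at day 37 against day 22, and 421 to 443 and 229 to 238 at day 37 against day 7. For G these were 68 to 79 and 28 to 34, 35 to 42 and 58 to 64, and 67 to 71 and 54 to 58. The reported fit did not pair libraries by replicate number. In their deviations from the day means, same-numbered libraries of different days correlated at -0.031 to 0.123 and differently numbered ones at -0.127 to 0.042. Whether libraries with one number belong together is not known from these values. With the replicate block, 519 C members were higher and 100 lower at day 22 against day 7, 190 and 285 at day 37 against day 22, and 413 and 208 at day 37 against day 7. Members near 9 reads are limited by depth, since a 0 spans 0 to 9 reads.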
